A study of Mus musculus with 3 samples.

Results

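The 10 mature miRNAs described here are both arms of 5 hairpins of a miRNA cluster on mouse chromosome 12: miR-323, miR-543, miR-382, miR-485 and miR-541. They are 10 of the 693 miRNAs listed, chosen by name, and every arm of these hairpins was listed. The 5 hairpins were picked for how their miRNAs moved in these libraries, namely lower after inhibition of Smad2/3 activation and higher after its induction. The changes between libraries, and the differences between arms that are computed from them, are therefore a description. Short RNA was sequenced from TAG1 cells, a mouse embryonic stem (ES) cell line in which doxycycline (Dox) induces Alk4*, a constitutively active receptor that phosphorylates Smad2/3. All libraries came from this 1 line, with 1 library per condition. Untreated cells in medium with fetal bovine serum (FBS) gave the 0 hr library. For the 16 hrs SB library, cells were exposed during 16 hrs to 30 µM of SB, an inhibitor of the receptors that activate Smad2/3. It is spelled SB-431541 in the labels and with another last digit in the study. The 16+12 hrs library came from cells treated likewise with SB, followed by 12 hrs in 1 µg/µl Dox. Both treated cultures were in medium with Knockout Serum Replacement (KSR), so the change of medium and the treatment cannot be told apart in a comparison with the 0 hr library.

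miRNAs are cut from hairpins in longer primary transcripts by Drosha and then Dicer, which leaves a duplex of a 5p and a 3p strand. One strand is usually retained in an Argonaute protein and the other is mostly degraded, and the retained strand recognizes target transcripts mainly through its seed, bases 2 to 8. The hairpins described here lie in the imprinted Dlk1-Dio3 region, where noncoding RNAs and many miRNAs, among them those of Meg3, Rian and Mirg, are expressed from the maternally inherited chromosome.

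The mature sequences are shown because the arms of a hairpin carry different seeds and their levels did not move in equal measure. They were taken from RefSeq (GRCm38.p6), which matched 9 of the 10 members by name, and miR-485-5p is given by name alone. The seed is in capitals and each sequence is written 5′ to 3′.
miR-323-5p: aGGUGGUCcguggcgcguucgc
miR-323-3p: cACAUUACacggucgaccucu
miR-543-5p: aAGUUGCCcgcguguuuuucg
miR-543-3p: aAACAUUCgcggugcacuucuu
miR-382-5p: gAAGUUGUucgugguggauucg
miR-382-3p: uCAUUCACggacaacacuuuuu
miR-485-3p: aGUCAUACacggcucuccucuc
miR-541-5p: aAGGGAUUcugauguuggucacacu
miR-541-3p: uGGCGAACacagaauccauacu
The 9 seeds all differ from each other. Among the 516 listed miRNAs with a mature sequence, none outside the members shared bases 2 to 8 with one of them. Bases 2 to 7 of miR-382-5p (AAGUUG) were shared with miR-495-5p, which was a rare strand, at 3.38 rpm at 0 hr, then 3.43 rpm at 16 hrs SB and finally 1.52 rpm at 16+12 hrs (rpm, reads of the miRNA per 1000000 reads of the library).

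The hairpins are shown because the strands compared below are the arms of one molecule, with each mature strand that has a RefSeq entry in capitals. All 5 lie on the plus strand of chromosome 12 (GRCm38.p6), within 29991 bases.
miR-323, chr12:109712508-109712593: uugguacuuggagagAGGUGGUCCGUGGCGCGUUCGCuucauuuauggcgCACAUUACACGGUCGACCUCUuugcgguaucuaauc
miR-543, chr12:109717258-109717333: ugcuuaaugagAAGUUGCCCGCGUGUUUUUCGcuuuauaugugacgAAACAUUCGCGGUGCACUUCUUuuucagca
miR-382, chr12:109733771-109733846: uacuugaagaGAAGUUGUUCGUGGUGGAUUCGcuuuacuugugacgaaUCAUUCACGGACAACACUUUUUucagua
miR-485, chr12:109734902-109734974: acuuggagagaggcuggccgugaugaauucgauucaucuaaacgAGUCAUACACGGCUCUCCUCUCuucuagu
miR-541, chr12:109742409-109742498: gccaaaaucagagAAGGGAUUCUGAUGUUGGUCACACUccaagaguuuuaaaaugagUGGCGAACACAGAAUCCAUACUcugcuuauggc
The hairpins of miR-543 and miR-382 were the most alike, with 73.4% of 79 aligned columns identical. miR-541 stood farthest from the others, with 48.5% to 52.7% identity.

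The 5 hairpins were grouped under the name of Mirg, a maternally expressed noncoding RNA gene, but the GENCODE annotation (GRCm38) placed only 3 of them within it (chr12:109729764-109749460). The miR-541 hairpin is intronic in all 6 Mirg transcripts that span it. The miR-382 hairpin is spanned by 3 Mirg transcripts and is intronic except for at most 2 bases at its end, which lie in an exon of 3 transcripts (exon 8 in one of them). The miR-485 hairpin is also spanned by 3 transcripts, and 3 have an exon that overlaps it (exon 10 in the transcript just mentioned). The largest of these overlaps holds all of its 73 bases. The miR-323 and miR-543 hairpins lie 17170 and 12430 bases before the annotated start of Mirg, in the interval that follows Rian. RefSeq places the start of Mirg elsewhere, since its promoter window (chr12:109734731-109735030) holds the miR-485 hairpin. From one of the 5 hairpins to the next of them, with other hairpins of the cluster in between, there are 4664 bases (miR-323 to miR-543), 16437 bases (miR-543 to miR-382), 1055 bases (miR-382 to miR-485) and 7434 bases (miR-485 to miR-541).

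A stretch written CAUNCNCGG, in which N is any base, runs through the 3p arms of 3 of these hairpins. It was noticed in the sequences above and then searched on the mature strand alone, so its share is a description. It was found in 5 of the 516 listed mature sequences (0.969%), all 5 from the chromosome 12 cluster, and is in capitals here.
miR-543-3p: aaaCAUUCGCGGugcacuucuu
miR-382-3p: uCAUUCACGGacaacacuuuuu
miR-485-3p: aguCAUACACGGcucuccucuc
miR-154-3p: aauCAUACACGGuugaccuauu
miR-494-3p: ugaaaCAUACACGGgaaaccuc
The stretch begins at base 2 in miR-382-3p, at base 4 in miR-543-3p, miR-485-3p and miR-154-3p, and at base 6 in miR-494-3p, and in each it overlaps the seed.

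The authors' scaling implied totals of 9895513 to 11354692 reads per library, which are below the read totals stated in the study for each library, and the cause was not tested. Of the implied totals, 28.3% were on listed miRNAs at 0 hr, against 24.1% at 16 hrs SB and, after Dox, 33.4% at 16+12 hrs. Of the 14 miRNAs fixed as typical of ES cells, all were listed, and together they made up 26.5%, 24.8% and 25.5% of the miRNA reads in this order. They did not move together, with 7 of the 14 highest and 5 lowest at 16 hrs SB, and much of the sum was miR-290-5p, which is given with the miRNAs of like pattern. Fibroblasts are the usual feeder cells of ES cells, and all 16 miRNAs fixed as typical of them were listed as well. They made up 2.17% of the miRNA reads at 0 hr, next to 5.33% at 16 hrs SB and then 2.10% at 16+12 hrs, and 14 of the 16 were highest at 16 hrs SB, where the miRNAs described here were lowest. No defining marker was listed at 0, and the lowest was miR-214-3p, at 0.101 rpm at 16+12 hrs. The 6 miRNAs fixed as typical of neural cells made up 1.02%, 0.917% and 1.18% of the miRNA reads. In rpm, 5 of the 6 were lowest at 16 hrs SB, as were the miRNAs described here. The authors' rpm of all listed miRNAs leaned the same way, with a median log2 ratio of −0.19 for 16 hrs SB over 0 hr. For 16+12 hrs over 16 hrs SB that median was 0.38, so a tally in rpm depends on the scaling. The part of these values in the results was not tested. In bulk RNA, fewer cells of a type and less RNA per cell cannot be told apart.

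Together the 10 miRNAs held 16451 rpm at 0 hr, then 7006 rpm at 16 hrs SB and finally 15047 rpm at 16+12 hrs. This was 5.81% of all miRNA reads at 0 hr (95% exact interval 5.78 to 5.84), against 2.90% at 16 hrs SB (2.88 to 2.92) and, after Dox, 4.51% at 16+12 hrs (4.49 to 4.53). The intervals of levels are Poisson and those of shares and of ratios are Clopper-Pearson, and all cover counting error alone, since no condition had a replicate. Of the 72 listed miRNAs of the predicted primary transcript from miR-341 to miR-3072, these 10 held 64.6%, 55.1% and 68.7% of the rpm in the same order. In each library miR-543-3p was the most abundant of the 10 and miR-543-5p the least, although both come from the same hairpin. The ratio between them was 1205-fold at 0 hr, 582-fold at 16 hrs SB and 1338-fold at 16+12 hrs.

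**Figure D1:**
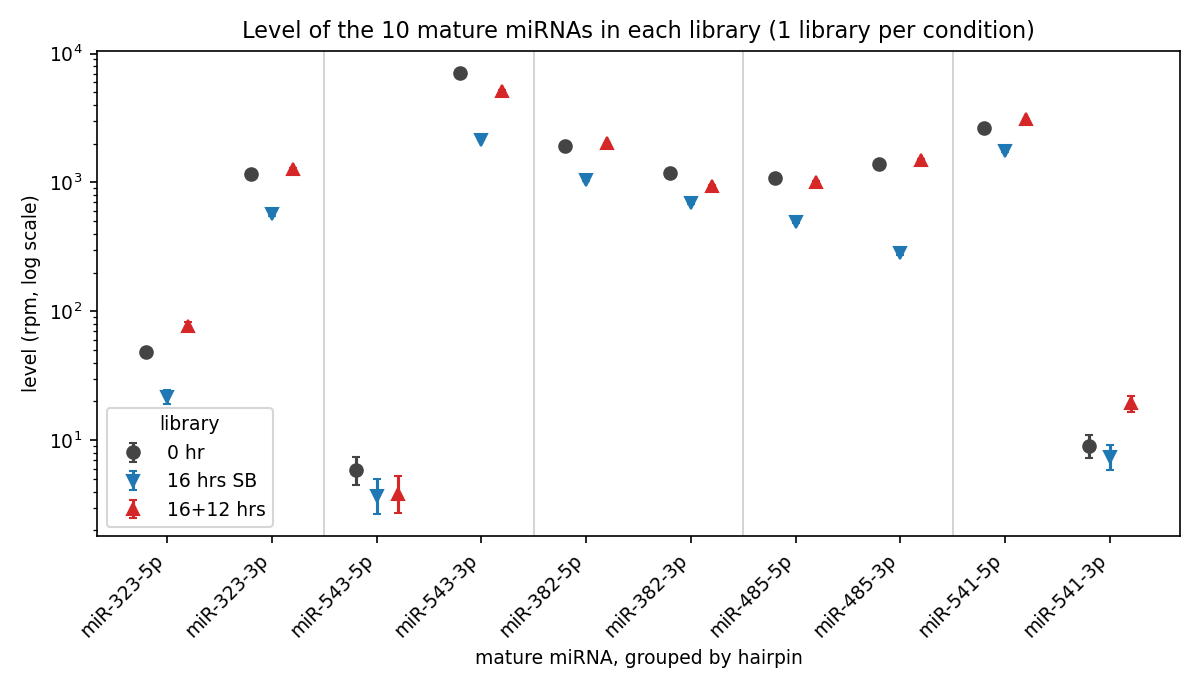
Level in rpm (log scale) of each arm of the 5 hairpins in the 0 hr, 16 hrs SB and 16+12 hrs libraries, with 95% exact Poisson intervals that cover counting error only. Each of the 10 miRNAs had its lowest rpm at 16 hrs SB, and miR-543-3p spans 2152 to 7038 rpm while miR-543-5p stays between 3.70 and 5.84 rpm.

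At 0 hr, the order from high to low was miR-543-3p, miR-541-5p and miR-382-5p, then miR-485-3p, miR-382-3p, miR-323-3p and miR-485-5p, and last miR-323-5p, miR-541-3p and miR-543-5p. The intervals of miR-382-3p (1154 to 1195 rpm) and miR-323-3p (1137 to 1177 rpm) overlapped, as did those of miR-541-3p (7.34 to 11.0 rpm) and miR-543-5p (4.50 to 7.46 rpm). At 16 hrs SB, miR-485-3p moved below miR-382-3p, miR-323-3p and miR-485-5p, with an interval of 272 to 292 rpm against 481 to 506 rpm for miR-485-5p, the next above it. At 16+12 hrs, miR-485-3p was back in its place after miR-382-5p, and miR-382-3p had come below miR-323-3p and miR-485-5p. In the latter pair of libraries, no neighbours in the order had overlapping intervals. The 9 strands with a mature sequence are of similar length (21 to 25 bases), and all levels are in read numbers and without correction for sequence.

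The first comparison asks which miRNAs are lower once Smad2/3 activation is blocked, and the second which are higher once it is induced again. In the second, the 16+12 hrs cells had also received Dox itself and had spent longer in KSR medium. These libraries cannot separate such effects from the induction of Smad2/3. For some miRNAs, the study tested Dox by quantitative PCR in the parental line, which lacks the inducible receptor. The members measured there did not reach the fold change that the study required. A miRNA met the criteria of the study where the larger of its levels was at least 25% above the smaller and its Z-score lay in the outer 5% of the normal distribution, counting both tails. The Z-score compares the reads of 2 libraries and not conditions. Lower at 16 hrs SB than at 0 hr were 9 of the 10 miRNAs, against 30.2% of all listed miRNAs, and the exception was miR-541-3p. Higher at 16+12 hrs than at 16 hrs SB were also 9 of the 10, against 41.7% of all, and here the exception was miR-543-5p. The p-Smad2/3 activation profile, which joins both criteria, was met by 8 of the 10, against 20.9% of all listed. Nothing is read from these shares, since the hairpins were picked on these contrasts, and the comparisons share the 16 hrs SB library.

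For 16 hrs SB over 0 hr, the median log2 ratio of the 10 miRNAs was −0.96, and for 16+12 hrs over 16 hrs SB it was 1.09. Over all listed miRNAs the medians were −0.19 and 0.38. When the libraries were scaled to the reads on listed miRNAs in place of the authors' totals, the medians over all listed were 0.04 and −0.09, and those of the 10 were −0.73 and 0.62. A factor per library shifts every miRNA alike, so it leaves the distance between the medians as it is. At least 100 reads in every library were found for 8 of the 10, and miR-543-5p and miR-541-3p had fewer.

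**Figure D2:**
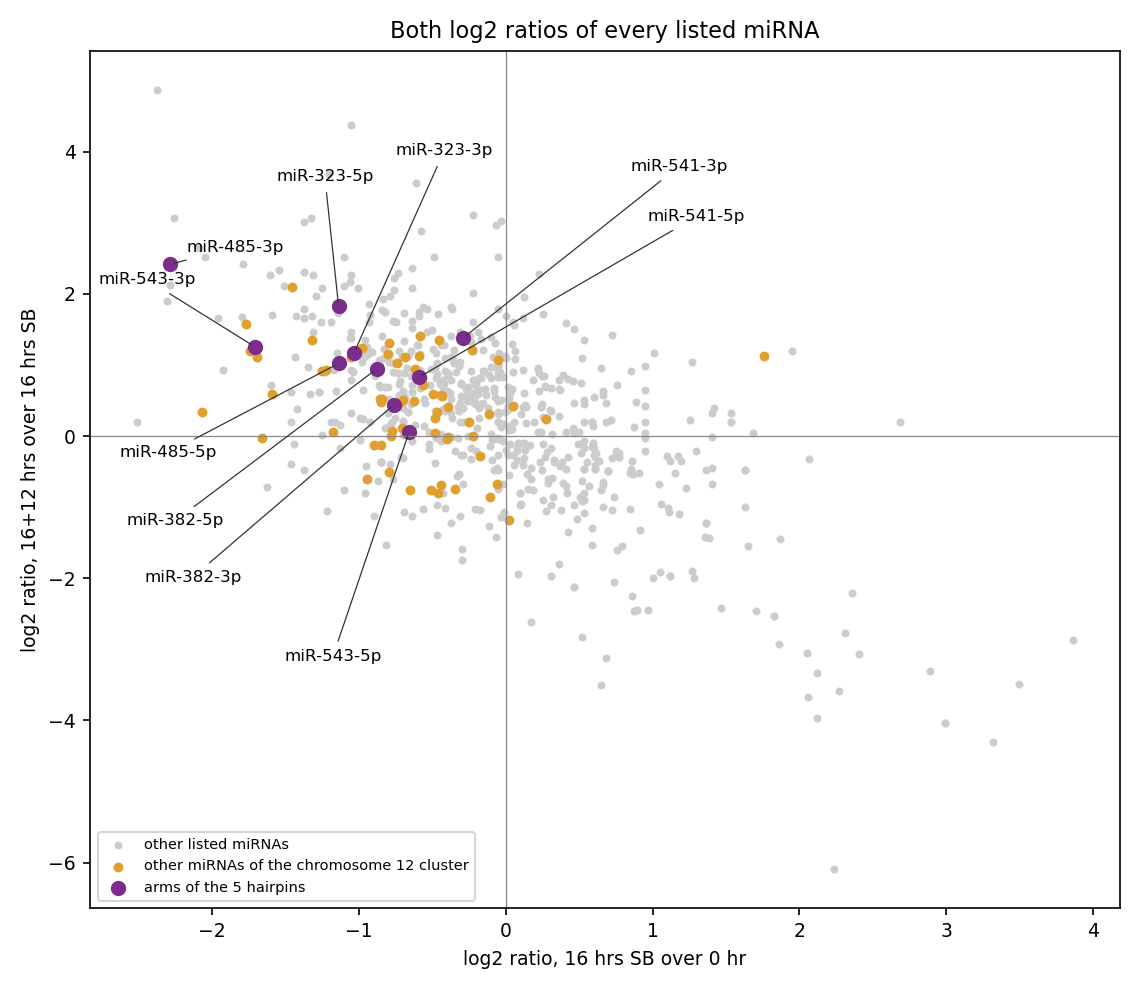
log2 ratio of 16 hrs SB over 0 hr (horizontal) and of 16+12 hrs over 16 hrs SB (vertical) for the 693 listed miRNAs, with the arms of the 5 hairpins and the other miRNAs of the chromosome 12 cluster marked. The axes share the 16 hrs SB library, so a high or low value there places a point along the falling diagonal. miR-485-3p lies farthest to the upper left of the 10, at −2.29 and 2.41.

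The 3p arm of miR-485 gave the largest log2 ratio of the 10, in size, in both comparisons. miR-485-3p had 1380 rpm at 0 hr (15123 reads), next to 282 rpm at 16 hrs SB (3204 reads) and then 1504 rpm at 16+12 hrs (14883 reads). It was low at 16 hrs SB alone, with the outer libraries close to each other. For 16 hrs SB over 0 hr its log2 ratio of −2.29 (95% interval −2.35 to −2.24) was the 4th lowest of the 693 listed, and its log2 ratio of 2.41 for 16+12 hrs over 16 hrs SB (2.36 to 2.47) was the 18th highest. The other arm, miR-485-5p, had 1086 rpm, 493 rpm and 1002 rpm. It had the same order of libraries in smaller steps, with log2 ratios of −1.14 (−1.18 to −1.09) and 1.02 (0.97 to 1.07).

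The more abundant arm of miR-485 was not the same in each library. The 5p arm held 44.0% of the reads of the hairpin at 0 hr (43.4 to 44.6), then 63.6% at 16 hrs SB (62.6 to 64.6) and finally 40.0% at 16+12 hrs (39.4 to 40.6). The 3p arm was therefore the larger at 0 hr and 16+12 hrs and the 5p arm at 16 hrs SB. A share within a library does not depend on a scaling factor of that library. From 0 hr to 16 hrs SB the log2 ratio of the 5p arm exceeded that of the 3p arm by 1.15 (1.08 to 1.22), and from 16 hrs SB to 16+12 hrs it lay below that of the 3p arm, with a difference of −1.39 (−1.47 to −1.32).

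These differences were set beside 62 hairpins with at least 100 reads on each arm in every library, out of 239 with both arms listed. The median size of the difference between arms over the 62 was 0.34 on the log2 scale in the first comparison and 0.61 in the second. The difference of miR-485 was the 3rd largest of the 62 in the first comparison and the 11th largest in the second, a place that rests on the change of miR-485-3p for which the hairpin was picked. An inequality of over 3 counting errors was common, at 53.2% of the 62 hairpins in the first comparison and 67.7% in the second. With both arms added, miR-485 had 2467 rpm at 0 hr, against 776 rpm at 16 hrs SB and, after Dox, 2506 rpm at 16+12 hrs, and the log2 ratio of the last over the first was 0.02 (−0.0022 to 0.048).

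**Figure D3:**
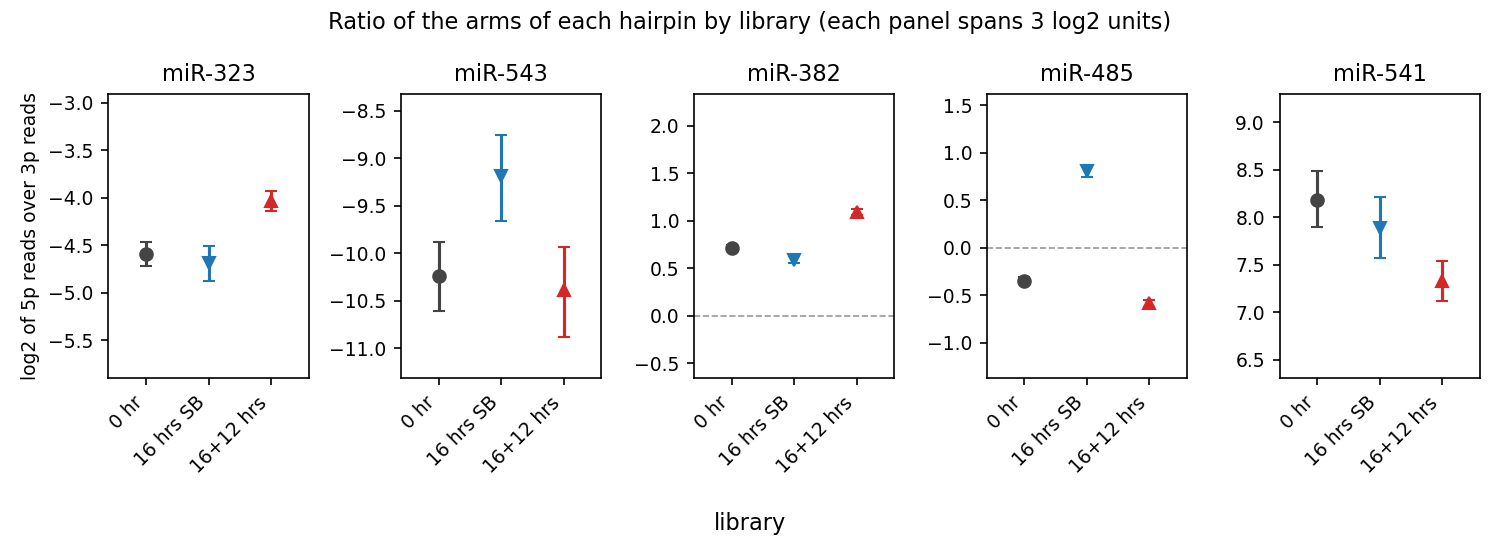
log2 of the reads of the 5p arm over those of the 3p arm for each hairpin in the 3 libraries, with 95% exact intervals (counting error only), and a dashed line at equal reads where a panel reaches it. The miR-485 values cross the line, with 63.6% of reads on the 5p arm at 16 hrs SB against 44.0% and 40.0%, and the other 4 hairpins keep the same larger arm in each library.

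The miR-543 hairpin gave nearly all of its reads on the 3p arm. miR-543-3p had 7038 rpm at 0 hr (77103 reads), next to 2152 rpm at 16 hrs SB (24436 reads) and then 5137 rpm at 16+12 hrs (50833 reads). It was the 9th most abundant of all listed miRNAs at 0 hr, the 24th at 16 hrs SB and the 15th at 16+12 hrs. The log2 ratios were −1.71 (−1.73 to −1.69), 1.26 (1.23 to 1.28) and, for 16+12 hrs over 0 hr, −0.45 (−0.47 to −0.44), so that the level at 16+12 hrs stayed below that at 0 hr.

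miR-543-5p had 5.84 rpm at 0 hr (64 reads), then 3.70 rpm at 16 hrs SB (42 reads) and finally 3.84 rpm at 16+12 hrs (38 reads). The treated libraries were close to each other and the 0 hr library was above them, although its interval (4.50 to 7.46 rpm) overlapped that of each of the others. Its log2 ratio for 16 hrs SB over 0 hr was −0.66 (−1.26 to −0.08), a call that was lost under 3 of 5 other scalings (−0.43 to −0.48), and for 16+12 hrs over 16 hrs SB it was 0.05 (−0.62 to 0.72), a direction that turned under all 5. The 5p share of the hairpin was 0.083% at 0 hr (0.064 to 0.11), against 0.17% at 16 hrs SB (0.12 to 0.23) and, after Dox, 0.075% at 16+12 hrs (0.053 to 0.10), highest where the 3p arm was lowest. In log2 ratio the 5p arm differed from the 3p arm by 1.05 (0.45 to 1.63) in the first comparison and by −1.20 (−1.87 to −0.53) in the second. These have the sign of the differences of miR-485 but rest on 38 to 64 reads of the 5p arm.

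The miR-382 hairpin gave both arms in large amounts. miR-382-5p had 1922 rpm at 0 hr, next to 1045 rpm at 16 hrs SB and then 2009 rpm at 16+12 hrs, with log2 ratios of −0.88 (−0.91 to −0.85) and 0.94 (0.91 to 0.98). miR-382-3p had 1174 rpm, 693 rpm and 941 rpm, and its increase at 16+12 hrs was the smaller of the arms. The log2 ratios of this arm were −0.76 (−0.80 to −0.72) and 0.44 (0.40 to 0.49), and the latter became −0.03 with the libraries scaled to the reads on listed miRNAs and 0.06 under median of ratios and TMM. Against the threshold of 25%, miR-382-3p was inside, 35.8% higher at 16+12 hrs than at 16 hrs SB. miR-541-3p was outside, with a level at 0 hr that was 22.1% above that at 16 hrs SB, and its Z-score of −1.35 did not pass either.

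The 5p arm was the larger arm of miR-382 in every library, with 62.1% of the reads at 0 hr (61.6 to 62.6), then 60.1% at 16 hrs SB (59.4 to 60.8) and finally 68.1% at 16+12 hrs (67.6 to 68.6). The arms moved nearly alike from 0 hr to 16 hrs SB, with a difference of −0.12 (−0.17 to −0.07) that was the 52nd largest of the 62 hairpins. From 16 hrs SB to 16+12 hrs the log2 ratio of the 5p arm exceeded that of the 3p arm by 0.50 (0.45 to 0.56), the 40th largest. Under quantile normalization, which is not a single factor per library, the latter difference was 0.17. The signs of the arm differences of miR-382 were opposite to those of miR-485 in both comparisons.

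The miR-323 hairpin gave mostly its 3p arm. miR-323-3p had 1157 rpm at 0 hr, against 565 rpm at 16 hrs SB and, after Dox, 1264 rpm at 16+12 hrs, with log2 ratios of −1.04 (−1.08 to −0.99) and 1.16 (1.12 to 1.21). miR-323-5p had 48.1 rpm (527 reads), 21.8 rpm (248 reads) and 77.4 rpm (766 reads). Both arms were lowest at 16 hrs SB and in rpm highest at 16+12 hrs, although under 4 of 5 other scalings miR-323-3p was higher at 0 hr than at 16+12 hrs. The log2 ratios of the 5p arm were −1.14 (−1.36 to −0.92) and 1.83 (1.62 to 2.04). The 5p share was 3.99% at 0 hr (3.66 to 4.34), next to 3.72% at 16 hrs SB (3.28 to 4.21) and then 5.77% at 16+12 hrs (5.38 to 6.18). The arms did not differ beyond counting error in the first comparison (−0.10, interval −0.33 to 0.12), and in the second the 5p arm exceeded the 3p arm by 0.66 (0.45 to 0.88), the 29th largest of the 62 differences.

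The miR-541 hairpin gave nearly all reads on the 5p arm and had the smallest drop of the 5. miR-541-5p had 2630 rpm at 0 hr, then 1743 rpm at 16 hrs SB and finally 3089 rpm at 16+12 hrs, with log2 ratios of −0.59 (−0.62 to −0.57) and 0.83 (0.80 to 0.85). miR-541-3p had 9.04 rpm (99 reads), 7.40 rpm (84 reads) and 19.3 rpm (191 reads). The intervals of the first pair overlapped (7.34 to 11.0 and 5.90 to 9.16 rpm) and the 16+12 hrs library stood above both. The log2 ratio of the 3p arm was −0.29 (−0.73 to 0.15) in the first comparison and 1.38 (1.01 to 1.77) in the second. The 5p share went from 99.66% at 0 hr (99.58 to 99.72) and 99.58% at 16 hrs SB (99.48 to 99.66) to 99.38% at 16+12 hrs (99.28 to 99.46). The arms differed by −0.56 (−0.95 to −0.18) in the second comparison, and in the first the interval included 0 (−0.30, from −0.74 to 0.13).

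With the arms of each hairpin added, 16 hrs SB over 0 hr gave a log2 ratio of −1.71 for miR-543, −1.67 for miR-485, −1.04 for miR-323, −0.83 for miR-382 and −0.59 for miR-541. The intervals of miR-543 (−1.73 to −1.69) and miR-485 (−1.70 to −1.63) overlapped and the others stood apart. For 16+12 hrs over 16 hrs SB the order was miR-485 at 1.69 (1.66 to 1.73), miR-543 at 1.254 (1.232 to 1.276), miR-323 at 1.19 (1.15 to 1.24), miR-541 at 0.83 (0.80 to 0.85) and miR-382 at 0.76 (0.74 to 0.79). Here miR-543 and miR-323 had overlapping intervals.

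The third comparison sets induction by Alk4* against untreated cells, in another medium. Of the 10 miRNAs, 2 were higher at 16+12 hrs than at 0 hr (30.6% of all listed), namely miR-323-5p and miR-541-3p, with log2 ratios of 0.69 (0.52 to 0.85) and 1.09 (0.74 to 1.46). These are the minor arms of their hairpins. Another 2 were lower (19.8% of all), namely miR-543-3p at −0.45 and miR-543-5p at −0.61 (−1.22 to −0.0040). The other 6 passed on the Z-score but not on the change of 25%, with log2 ratios between −0.32 (miR-382-3p) and 0.23 (miR-541-5p). The nearest to the threshold was miR-382-3p, with a level at 0 hr that was 24.8% above that at 16+12 hrs. Under 5 other scalings miR-382-3p passed the criteria as lower, at −0.44 to −0.62, and miR-485-5p did so with reads on listed miRNAs (−0.35) and with miR-26a-5p set equal (−0.42). The positive values of miR-485-3p and miR-382-5p turned negative under all 5, and miR-382-5p passed as lower under quantile normalization (−0.41). The value of miR-323-3p turned negative under 4 of the 5, and that of miR-541-5p under 2 and became 0 under quantile normalization. Between the outer libraries, the arms differed most for miR-541 (−0.86, interval −1.23 to −0.50), followed by miR-323 (0.56, interval 0.39 to 0.73), miR-382 (0.38, interval 0.34 to 0.43) and miR-485 (−0.24, interval −0.29 to −0.19). For miR-543 the interval included 0 (−0.15, from −0.77 to 0.45). Under quantile normalization the difference of miR-382 was 0.03 and that of miR-485 was −0.12, which turns their order. Over the 62 hairpins the median size was 0.55, and 74.2% had arms apart by over 3 counting errors.

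**Figure D4:**
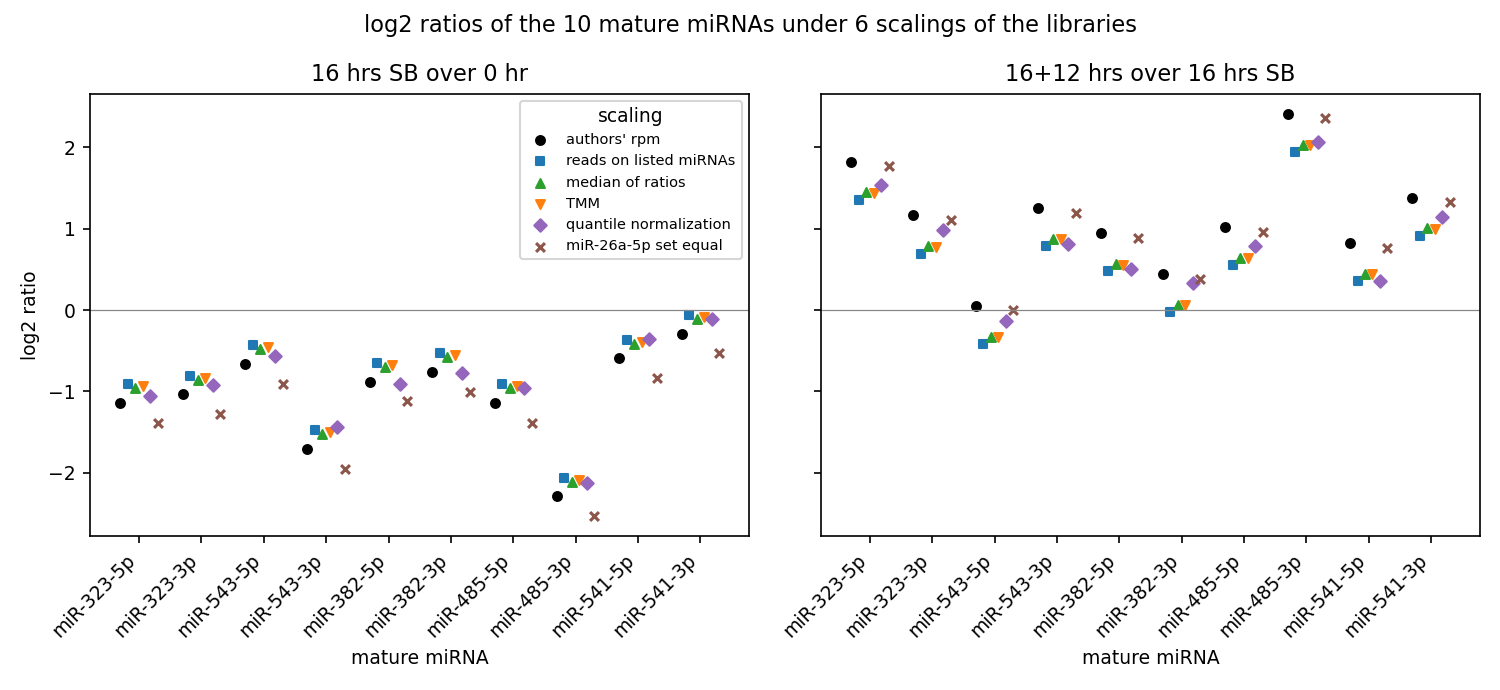
log2 ratios of the 10 miRNAs for 16 hrs SB over 0 hr (left) and 16+12 hrs over 16 hrs SB (right) under the authors' rpm and 5 other scalings of the libraries, 1 symbol per scaling. Only miR-543-5p and miR-382-3p have symbols on both sides of 0, in the right panel, where miR-382-3p lies between −0.03 and 0.44.

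Within the cluster, the list of the other 62 miRNAs of the predicted primary transcript was set beside these 10, which had been picked for their change. Of the 62, 42 were lower at 16 hrs SB (30.2% of all listed) and 1 was higher (15.3% of all), miR-668-5p, named after its values were seen, which had 0.548 rpm at 0 hr and 1.85 rpm at 16 hrs SB. Higher at 16+12 hrs than at 16 hrs SB were 31 of the 62 (41.7% of all), and 8 were lower (17.9% of all). The p-Smad2/3 activation profile was met by 26 of them, or 41.9%, against 20.9% of all. The median log2 ratios of the 62 were −0.62 and 0.47, between those of the 10 and those of all listed. For 16+12 hrs over 0 hr the median of the 62 was −0.25, with 24 lower (19.8% of all) and 8 higher (30.6% of all), against 0.09 for the 10 and 0.19 for all listed.

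Among the 30 of these 62 with at least 100 reads in every library, the lowest log2 ratios for 16 hrs SB over 0 hr were those of miR-494-3p (−1.59), miR-329-5p (−1.25) and miR-154-3p (−1.23). Of these, miR-494-3p and miR-154-3p hold the stretch shown above. It was noticed in members picked for their drop, and miR-382-3p, which also holds it, was at −0.76, so nothing is read from this. The highest were miR-411-5p (0.05), miR-379-3p (−0.06) and miR-496-3p (−0.11), none of which met the criteria. For 16+12 hrs over 16 hrs SB the highest were miR-1193-5p (1.41), miR-668-3p (1.35) and miR-409-3p (1.16). The lowest were miR-496-3p (−0.85), miR-134-5p (−0.80) and miR-299-5p (−0.76), all lower by the criteria. miR-134, known for acting against pluripotency factors such as Nanog, had 633 rpm at 0 hr, against 458 rpm at 16 hrs SB and, after Dox, 263 rpm at 16+12 hrs on its 5p arm.

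**Figure D5:**
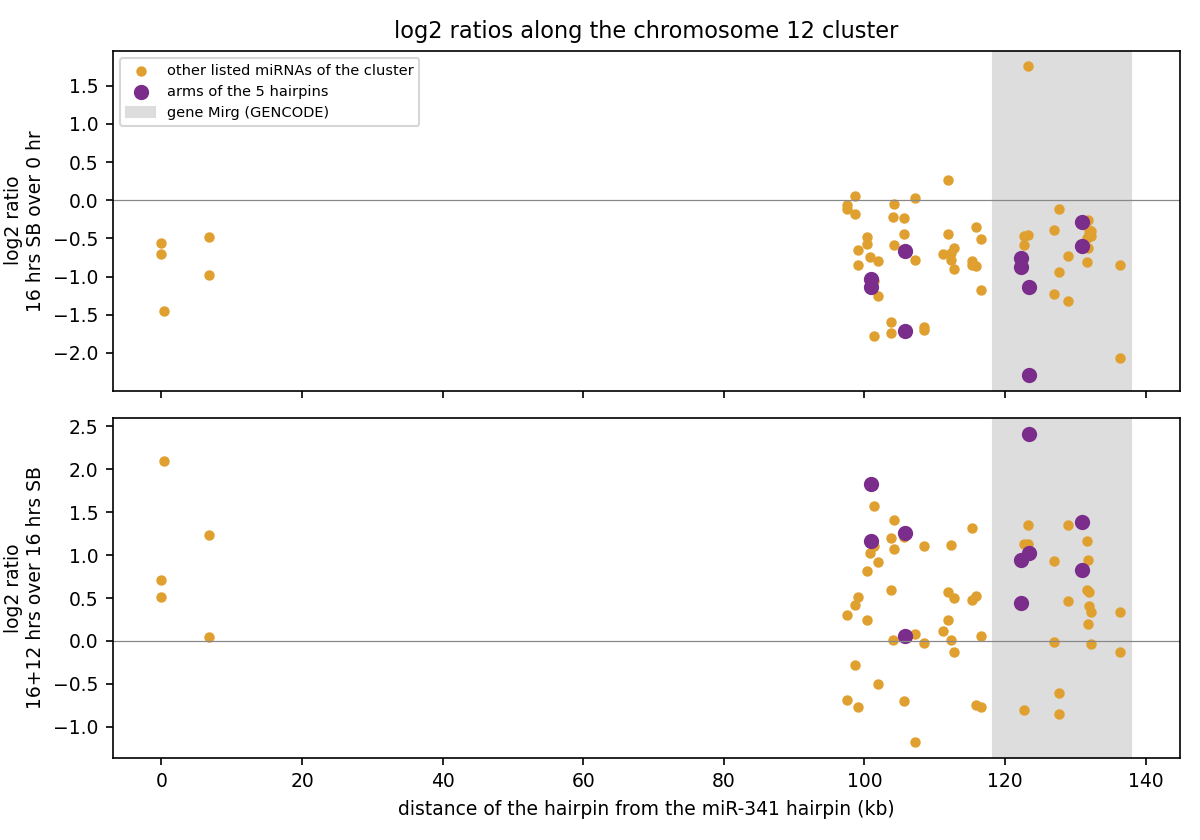
log2 ratio of each of the 72 listed miRNAs of the cluster against the distance of its hairpin from that of miR-341 (kb), for 16 hrs SB over 0 hr (top) and 16+12 hrs over 16 hrs SB (bottom), with the GENCODE extent of Mirg shaded. Arms of the 5 hairpins lie both before and inside Mirg, and other miRNAs at like distances range from higher to lower in the bottom panel.

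Outside the 10, the listed miRNAs with at least 100 reads in every library whose pair of log2 ratios lay nearest to the median of the 10 were miR-3095-3p, miR-290-5p, miR-17-3p, miR-497-5p and miR-302a-5p, by Euclidean distance among 283 candidates over the 3 libraries. None of them is in the cluster list. The nearest, miR-3095-3p, had log2 ratios of −0.95 and 1.13, at a distance of 0.04. The most abundant of them was miR-290-5p, of a cluster that is typical of ES cells, with 35638 rpm at 0 hr, next to 18094 rpm at 16 hrs SB and then 37406 rpm at 16+12 hrs. Abundance was judged in the study by the sum of rpm over a pair of libraries, with 1000 rpm as the limit. Taking for each miRNA the smaller of its sums over 0 hr with 16 hrs SB and over 16 hrs SB with 16+12 hrs, miR-485-5p was the lowest of the 10 inside the limit, at 1495 rpm, and miR-323-5p the highest outside it, at 69.9 rpm.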

How the data were processed

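The deposited files of the 3 libraries (0 hr, 16 hrs SB, 16+12 hrs) hold rpm values, which the authors made by scaling reads to 1000000 per library. According to the methods, adaptors were removed with the FASTX clipper, reads over 16 bases long were aligned to miRBase 18 with Bowtie (0.12.7 in the submitters' processing notes), without mismatches, 2 runs were pooled for each library, and miRNAs with under 10 reads in all were dropped. A read of several miRNAs went by length or to each, which can raise related strands together. No member shared all its values with another miRNA.

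Every rpm value was a whole multiple of 1 read (2079 values, within 0.01 reads), and the reads gave the intervals and Z-scores. The labels give 1 library per condition, so there was no test between conditions. Ratios were of rpm without a pseudocount. Arm differences are log2 odds ratios with exact conditional 95% intervals. The calls and the intervals of ratios were tested on simulated Poisson reads, which vary by counting error alone, and the other steps were not tested in this way. Python 3.11.15, numpy 2.4.6, scipy 1.17.1, matplotlib 3.10.9 and biopython 1.88 were used.

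The members, lists and alternatives were chosen with earlier results of these data known. The miRNAs named are the members, those sharing a seed, the 5 nearest in pattern, the markers, miR-26a-5p and extremes of the cluster list. These extremes are the 3 lowest and 3 highest in the first and in the second comparison, among those with at least 100 reads in every library. Outside this rule, miR-668-5p was named after its values were seen. The cluster list came from the study's predicted primary transcript, names only.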

Additional observations from a re-analysis of the deposited data

How the results depend on the processing

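No paired analysis was possible because each condition had 1 library, and no replicate could be left out for the same reason. Under 5 other scalings and a pseudocount of 1 rpm, 8 to 10 members were lower at 16 hrs SB, 8 or 9 were higher at 16+12 hrs, and 7 to 9 had the profile. The 7 members with the profile under the authors' rpm and all 6 of these were both arms of miR-323 and of miR-485, the 5p arms of miR-382 and miR-541, and miR-543-3p. A fold threshold of 2 left 5 lower and 5 with the profile, by its construction. Of 180 log2 ratios, 157 kept their direction, 22 turned and 1 became 0 (miR-541-5p, 16+12 hrs over 0 hr, quantile normalization). In all, 6 lost a call (1 of them turned) and 9 gained one (1 of them turned). The cause was not tested.

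The values that turned are given for reads on listed miRNAs, median of ratios, TMM, quantile normalization and miR-26a-5p set equal (647, 766 and 798 rpm in the files), in this order where all 5 turned. For 16+12 hrs over 16 hrs SB these were miR-543-5p (−0.41, −0.33, −0.33, −0.13, −0.0046) and, with reads on listed miRNAs alone, miR-382-3p (−0.027). For 16+12 hrs over 0 hr they were miR-382-5p (−0.17, −0.13, −0.12, −0.41, −0.24), miR-485-3p (−0.11, −0.074, −0.055, −0.056, −0.18), miR-323-3p (−0.11, −0.070, −0.051 and, with miR-26a-5p, −0.17) and miR-541-5p (−0.0048 with reads on listed miRNAs, −0.069 with miR-26a-5p). Quantile normalization moved the 5p share of miR-382 to 64.6%, 62.3% and 65.1% in the order of the libraries, and that of miR-485 to 42.0% at 0 hr and 61.8% at 16 hrs SB. Reads limited miR-543-5p and miR-541-3p most.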
